A study of Homo sapiens with 6 samples.

Results

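The 9 genes described here form the core of the circadian clock. They were taken by gene name and comprise the activators CLOCK, NPAS2, ARNTL (BMAL1) and ARNTL2 (BMAL2) and the repressors PER1, PER2, PER3, CRY1 and CRY2. All 9 were listed among the 26025 genes of the table, and all 9 were among the 15013 genes tested, whose mean over the libraries was 10 or more normalized counts. RNA had been sequenced from NCI-H1299 cells, a long-established human line of non-small cell lung cancer, in 3 Ctrl libraries and in 3 libraries of cells exposed to 10 µM norepinephrine (NE), the transmitter of sympathetic neurons, for 48 h. Cells of both groups were first starved in DMEM, for 8 to 12 h according to the labels, and then kept in RPMI-1640 with 2% serum. The vehicle of the Ctrl group is DMSO in the sample titles and PBS in the protocol. A single cell line was used, and the labels do not say whether the libraries of a group came from separate cultures, so the p-values measure the spread between libraries, which may be technical.

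In the circadian clock, a heterodimer of CLOCK or its paralog NPAS2 with BMAL1 or its paralog BMAL2 binds E-box elements in DNA and activates transcription. PER and CRY proteins, whose genes are among the targets, assemble with each other and return to the nucleus to inhibit the heterodimer. Within the families the paralogs differ, since PER1 and PER2 matter more than PER3 for the rhythm in mice, and CRY1 is known as the stronger repressor of the CRY pair. A single time point after treatment gives the level of each transcript but not its phase.

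Before normalization each library held between 16852751 and 17979206 reads on genes, and the reads on the 9 genes ranged from 67 for PER2 in Ctrl replicate 2 to 4104 for ARNTL2 in NE replicate 1. Ctrl replicate 3 stood apart from the other libraries, with 7305 genes at 0 reads against 3954 to 4833 elsewhere. The fits of the members and the paralog ratios on normalized counts were also run without it. The GC-corrected values, the summed FPKM, the score of activators minus repressors and the lists of other genes are given with all libraries only. The epithelial keratins KRT8 and KRT18 and the intermediate filament VIM were abundant in every library, while KRT19 had 0 to 9.33 normalized counts. KRT8 had 5232 to 6448 normalized counts in NE libraries against 9793 to 14180 in Ctrl, and the part of this difference in the results on the clock genes was not tested. Markers of other cell types were low, with summed levels of 0 to 17.4 for leukocytes (2 of 4 markers listed, CD79A and CD14), 22.3 to 52.9 for 3 endothelial markers and 24.5 to 43.5 for 4 fibroblast markers. The fibroblast markers did not move together. COL3A1 was at 0 in the Ctrl libraries and at 6.78 to 7.31 in the NE libraries. COL1A1 went the other way, since its NE libraries held 8.89, 7.75 and 11.0 normalized counts, below the 19.7 to 27.2 of Ctrl. DCN, PDGFRA and the sum of the 4 markers overlapped between the groups.

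The promoters are shown first, because the loop acts on its own genes through a few short elements. RefSeq promoter windows of GRCh38.p14, from 250 bases before to 50 bases after each start, were available for all 9 genes. CLOCK, ARNTL, PER3 and CRY2 had 2 starts each, and a gene was counted if any of its windows matched. The shares of all promoters are per single window, so the counts of genes and these shares are in unlike units. They were searched on both strands for the E-box CACGTG, the E-prime box CACGTT, the cAMP response element TGACGTCA, its short form TGACG (contained in the full element), the D-box TTATGNAA and the RORE core AGGTCA. The E-box stood in the window of PER1, against 7.26% of 35116 promoters, and the E-prime box in those of CLOCK (at its second start), PER2, CRY1 and CRY2, against 5.34%. The full cAMP response element was in the windows of 0 of the 9 genes, against 1.85% of all promoters. Its short form was in the windows of CLOCK, PER2, CRY1 and CRY2, against 24.6%. The D-box stood in PER1 and PER3 (3.3% of all promoters), and the RORE core in ARNTL, PER1 and CRY2 (13.8%). The windows of NPAS2 and ARNTL2 held none of these letters. A match describes the letters and is not a measured binding site. The following stretches are written on the strand of the gene with the element in capitals, so that an element found on the opposite strand reads as its reverse complement.
PER1 E-box, chr17:8152560-8152589, minus strand: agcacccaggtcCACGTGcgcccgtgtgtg
PER2 E-prime box, chr2:238288790-238288819, minus strand: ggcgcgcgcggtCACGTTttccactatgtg
CRY1 E-prime box, chr12:107093621-107093650, minus strand: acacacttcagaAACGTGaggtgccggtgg
CRY2 E-prime box, chr11:45847275-45847304, plus strand: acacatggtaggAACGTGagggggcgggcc
CLOCK E-prime box, chr4:55546102-55546131, minus strand: tcaccactcgggCACGTTtggagcagcgcc
CLOCK short cAMP response element, chr4:55546891-55546919, minus strand: ccgcggggtcgcTGACGacgcatgcgccg
PER1 D-box, chr17:8152417-8152446, minus strand: cagtgcccggcaTTATGCAAcccgcctccc
PER3 D-box, chr1:7784102-7784131, plus strand: cgagcccgcgcgTTATGTAAcgcgccccgg
ARNTL RORE core, chr11:13277809-13277838, plus strand: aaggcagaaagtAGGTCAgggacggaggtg

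To determine which clock genes differed between NE-treated and Ctrl cells, the normalized counts were compared with limma on the log2(value + 1) scale, with Benjamini-Hochberg adjustment over all tested genes. CLOCK, ARNTL and CRY1 were significantly higher in NE-treated cells, CRY2 was significantly lower, and NPAS2, ARNTL2, PER1, PER2 and PER3 did not pass an adjusted p of 0.05. Thus 3 of 9 members were higher, where 24.6% of all tested genes were, and 1 of 9 was lower, where 25.5% were. With a log2 fold change of at least 1 required as well, 2 members were higher, CLOCK and ARNTL, against 7.47% of tested genes, and 0 members were lower, against 6.55%. Every NE library lay above every Ctrl library for 3 members, against 29.7% of tested genes, and below for 1 member, against 28.9%. The median log2 fold change of the members was 0.17, beside 0.01 over all tested genes. Over all tested genes 3693 were higher and 3828 lower, a balance that became 4457 and 2942 when FPKM recomputed from the reads took the place of normalized counts. In bulk RNA, fewer cells that express a gene and less RNA per cell cannot be told apart.

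**Figure D1:**
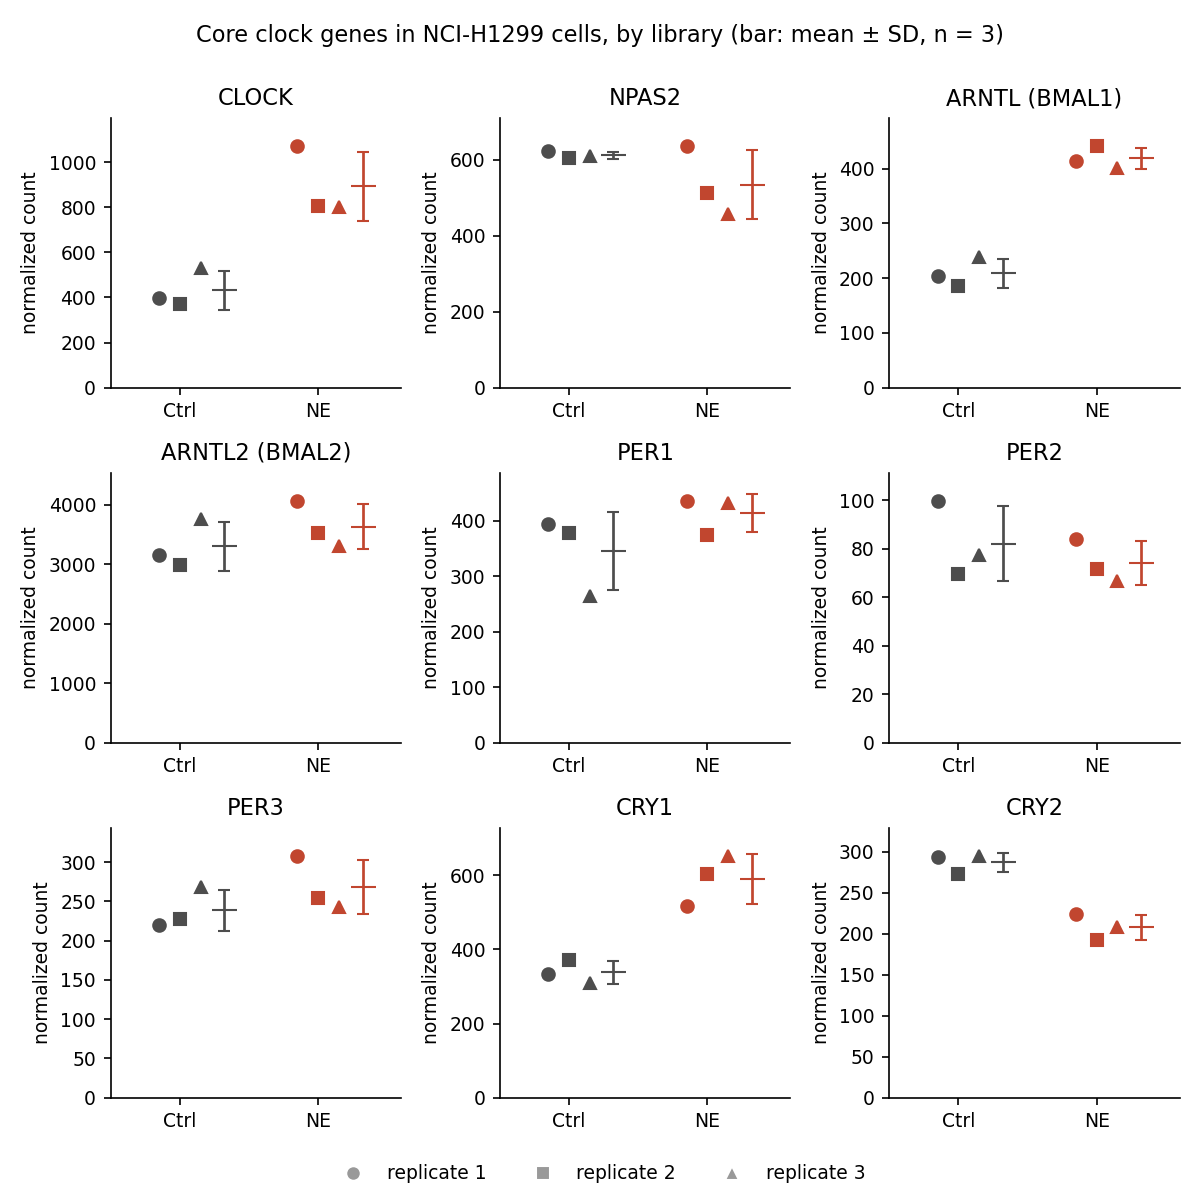
Normalized counts of the 9 core clock genes (vertical axes, each starting at 0) in the 3 Ctrl and 3 NE libraries, with symbols for the replicate number and a bar for the mean ± SD. The NE libraries of CLOCK (801 to 1070), ARNTL (402 to 441) and CRY1 (518 to 651) lie above all Ctrl libraries, those of CRY2 (193 to 223) lie below, and the groups overlap for the other genes.

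Among the activators, one paralog of each pair was higher with NE. CLOCK (ENSG00000134852, hg38 chromosome 4, 55427903 to 55546909, minus strand) encodes a bHLH-PAS activator with histone acetyltransferase activity. The Ctrl libraries held 396, 371 and 531 normalized counts of CLOCK, and the NE libraries 1070, 807 and 801. The groups were apart, with Ctrl replicate 3 the highest of its group and NE replicate 1 well above the other NE libraries. The mean of CLOCK went from 432.7 ± 86.1 to 892.5 ± 153.9 (SD, n = 3 each), a log2 fold change of 1.05 (standard error 0.174, limma, adjusted p = 0.00125). Its 11533 bases of merged exons share 76 bases with TMEM165 on the opposite strand, a gene with a mean normalized count of 1147 in Ctrl and 1017 with NE, and the sources used here do not say whether strand was used in counting.

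NPAS2 (ENSG00000170485, chromosome 2, 100820139 to 100996829, plus strand), the paralog that can take the place of CLOCK in the heterodimer, did not follow it. Its normalized counts were 622, 604 and 610 in Ctrl and 634, 511 and 456 in NE libraries. NE replicate 1 was above every Ctrl library and the other NE libraries were below them, so the groups overlapped. The log2 fold change of NPAS2 was -0.21 (standard error 0.141, limma, adjusted p = 0.242), which was -0.34 without NE replicate 1 and -0.10 without NE replicate 3. An antisense gene (ENSG00000223947) that shares 748 bases with its exons had means of 2.08 and 3.21 normalized counts.

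ARNTL (ENSG00000133794, chromosome 11, 13276652 to 13387266, plus strand) encodes BMAL1, a partner of CLOCK and NPAS2. A log2 fold change of 1.01 (standard error 0.142, limma, adjusted p = 0.000596) was found for ARNTL, from 209.0 ± 26.7 to 418.9 ± 19.8 normalized counts (SD, n = 3 each). Behind it stood 203, 186 and 238 normalized counts in Ctrl replicates 1 to 3 and 414, 441 and 402 in the NE libraries. The lowest NE library exceeded the highest Ctrl library, and the spread between the NE libraries was 0.987 times the SD that counting alone gives.

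ARNTL2 (ENSG00000029153, chromosome 12, 27332836 to 27425289, plus strand) encodes BMAL2, which also dimerizes with CLOCK. Per exon length it was the most abundant of the 9 transcripts in every library. Its normalized counts were 3157, 2981 and 3764 in Ctrl and 4055, 3524 and 3312 in NE libraries, and Ctrl replicate 3 lay above the lower NE libraries. The log2 fold change of ARNTL2 was 0.14 (standard error 0.124, limma, adjusted p = 0.372). Without Ctrl replicate 3 it was 0.24 and passed the test (limma, adjusted p = 0.0392), while CLOCK and ARNTL were then at 1.20 and 1.10. ARNTL2 was at 0.06 without NE replicate 1 and at 0.07 without Ctrl replicate 2.

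None of the PER genes passed the test. PER1 (ENSG00000179094, chromosome 17, 8140472 to 8156506, minus strand), a rapidly inducible repressor gene with cAMP response elements in its known regulatory region, had 395, 378 and 265 normalized counts in Ctrl libraries. In the NE libraries it had 435, 374 and 431. Ctrl replicate 3 was the low library, and NE replicate 2 was below Ctrl replicates 1 and 2, so the groups overlapped. PER1 had a log2 fold change of 0.28 (standard error 0.173, limma, adjusted p = 0.21), and of 0.09 without Ctrl replicate 3.

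PER2 (ENSG00000132326, chromosome 2, 238244044 to 238290102, minus strand), the PER protein most needed for a stable rhythm, was the least abundant member per exon length. It had 99.5, 69.5 and 77.4 normalized counts in Ctrl and 84.0, 71.7 and 66.7 in NE libraries. The groups overlapped, and a log2 fold change of -0.14 (standard error 0.218, limma, adjusted p = 0.624) was smaller than its standard error. Between 67 and 95 reads stood behind each of these values, which limits what could be detected for PER2.

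PER3 (ENSG00000049246, chromosome 1, 7784291 to 7845177, plus strand) had 220, 227 and 269 normalized counts in Ctrl libraries and 307, 254 and 243 in NE libraries. Ctrl replicate 3 again lay among the NE libraries. The log2 fold change of PER3 was 0.17 (standard error 0.155, limma, adjusted p = 0.396), which was 0.06 without NE replicate 1 and 0.25 without Ctrl replicate 3. The exons of PER3 share 868 bases with UTS2 on the opposite strand, whose mean normalized count was 1.35 in Ctrl and 0.932 with NE.

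The CRY paralogs went in opposite directions. CRY1 (ENSG00000008405, chromosome 12, 106991364 to 107093549, minus strand) had 334, 371 and 310 normalized counts in Ctrl libraries and 518, 602 and 651 in NE libraries. The lowest NE library of CRY1 exceeded its highest Ctrl library, and NE replicate 1, the highest NE library for 7 of the 9 genes, was the lowest for CRY1. CRY1 rose by 0.80 on the log2 scale (standard error 0.138, limma, adjusted p = 0.00151), from 338.3 ± 31.0 to 590.3 ± 67.2 normalized counts (SD, n = 3 each).

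CRY2 (ENSG00000121671, chromosome 11, 45847118 to 45883248, plus strand) fell from 286.6 ± 12.1 to 207.8 ± 15.3 normalized counts (SD, n = 3 each), a log2 fold change of -0.46 (standard error 0.136, limma, adjusted p = 0.0185). The Ctrl libraries held 293, 273 and 294 normalized counts, and the NE libraries 223, 193 and 207. The groups did not overlap, and the spread within each was close to that of counting, at 0.704 times the counting SD in Ctrl and 1.08 times in NE. The call of CRY2 was lost when Ctrl replicate 1, NE replicate 2 or NE replicate 3 was left out (limma, adjusted p = 0.0647, 0.0825 and 0.0526), with log2 fold changes of -0.45, -0.41 and -0.46. Recomputed as FPKM, which divides by the reads of the library and moves the median of all tested genes to 0.13, CRY2 was at -0.31 (limma, adjusted p = 0.0831).

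The changes stood beside a trend over all genes. Across 14955 tested genes, which are not independent replicates, the log2 fold change fell with the GC content of the merged exons, with a Spearman correlation of -0.644 given as a description. The median log2 fold change was 0.80 for genes near 33% GC and -0.84 for genes near 65% GC. CLOCK, with 38.2% GC, lay above the middle 50% of genes of like GC content, as did ARNTL with 45.1% and PER1 with 61.9%, whereas ARNTL2 with 41.0% lay below it. CRY1 with 41.6% and CRY2 with 55.2% lay within it, as did NPAS2 with 48.9%, PER2 with 53.5% and PER3 with 43.9%. Some positions were close to an edge, as ARNTL2 was at 0.14 against a lower edge of 0.16, and CRY1 at 0.80 against an upper edge of 0.83. For CLOCK, ARNTL2, CRY1, PER2 and PER3 the distance to the nearest edge was smaller than the standard error.

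**Figure D2:**
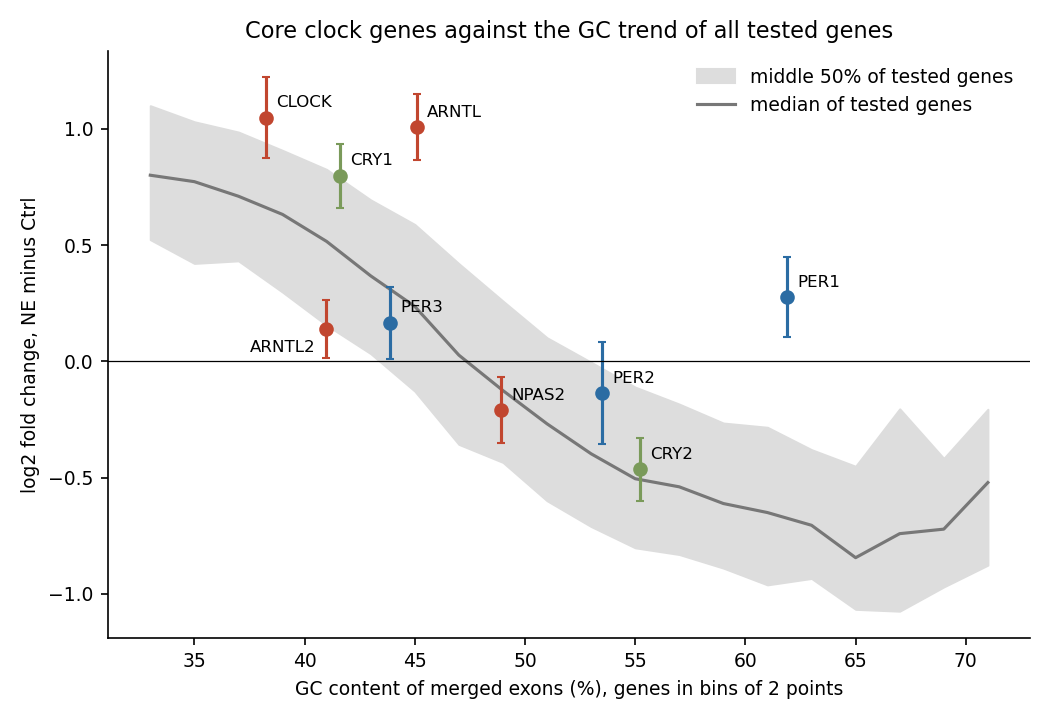
Log2 fold change of NE over Ctrl (vertical axis) against the GC content of merged exons (horizontal axis, percent) for the 9 core clock genes, with bars for the standard error, over the median and the middle 50% of tested genes in bins of GC content. CLOCK, ARNTL and PER1 stand above the band, ARNTL2 stands just below its edge, and CRY2 at -0.46 stands near the median of its bin, -0.50.

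When the trend on GC content was taken out of each library before the fit, 3 members were higher, CLOCK, ARNTL and PER1, against 14.5% of tested genes, and 1 was lower, ARNTL2, against 17.7%. ARNTL kept most of its change, at 0.80 (limma, adjusted p = 0.00126), and CLOCK was at 0.42 (limma, adjusted p = 0.0214). PER1, rich in GC, went from 0.28 to 0.91 (limma, adjusted p = 0.000576). ARNTL2 turned from 0.14 to -0.35 (limma, adjusted p = 0.0138). CRY1 was at 0.35 and CRY2 at -0.02, neither past the threshold (limma, adjusted p = 0.121 and 0.926). PER2 and PER3 also changed sign, to 0.23 and -0.13, without passing the test. The part of GC content in the measured changes was not tested.

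**Figure D3:**
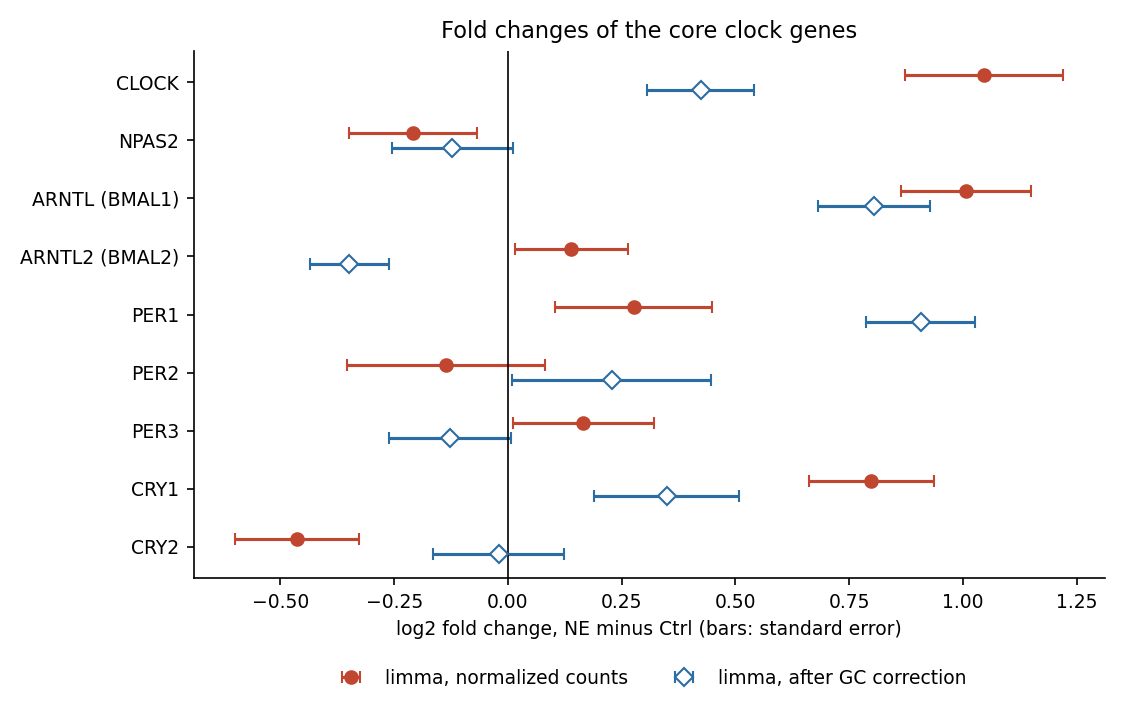
Log2 fold change of NE over Ctrl (horizontal axis) for each core clock gene, from limma on normalized counts (filled circles) and after removal of each library's GC trend (open diamonds), with bars for the standard error. CLOCK moves from 1.05 to 0.42, PER1 from 0.28 to 0.91, ARNTL2 from 0.14 to -0.35 and CRY2 from -0.46 to -0.02, while ARNTL stays at 1.01 and 0.80.

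To compare paralogs within a library, the log2 ratio of each pair was taken in each of the 6 libraries, which removes the scaling of the library. For 6 pairs an exact permutation test was run, two-sided, in which 3 against 3 libraries cannot give a p under 0.1. CLOCK minus NPAS2 was -0.65, -0.70 and -0.20 in Ctrl libraries and 0.75, 0.66 and 0.81 in NE libraries. The ratio thus changed sign, with CLOCK below NPAS2 in every Ctrl library and above it in every NE library, per count and per exon length alike. The difference of the mean log2 ratios was 1.26 (standard error 0.166, exact permutation p = 0.1, 0.15 adjusted over 6 pairs), and 1.42 without Ctrl replicate 3.

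ARNTL minus ARNTL2 was -3.95, -4.00 and -3.98 in Ctrl and -3.29, -3.00 and -3.04 in NE libraries. ARNTL2 was the larger in every library, also per exon length, and the gap was narrower in every NE library than in every Ctrl library. The log2 ratio differed by 0.87 (standard error 0.0921, exact permutation p = 0.1, 0.15 adjusted over 6 pairs).

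CRY1 minus CRY2 was 0.19, 0.44 and 0.07 in Ctrl and 1.21, 1.64 and 1.64 in NE libraries. Its difference of 1.26 (standard error 0.181, exact permutation p = 0.1, 0.15 adjusted over 6 pairs) was as large as that of CLOCK minus NPAS2. CRY1 was the larger in every library, also per exon length, and by a wider margin with NE.

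The PER pairs moved less on this scale. PER1 minus PER2 differed by 0.41 (standard error 0.222, exact permutation p = 0.3, 0.36 adjusted over 6 pairs) and its groups overlapped. PER1 minus PER3 differed by 0.11 (standard error 0.289, exact permutation p = 0.9, also after adjustment), and by -0.16 without Ctrl replicate 3, in which PER1 was as low as PER3. PER2 minus PER3 was -1.14, -1.69 and -1.78 in Ctrl and -1.86, -1.81 and -1.85 in NE libraries, a difference of -0.30 (standard error 0.203, exact permutation p = 0.1, 0.15 adjusted over 6 pairs). The NE libraries lay below the Ctrl libraries for PER2 minus PER3, though only narrowly below Ctrl replicates 2 and 3, and the difference was -0.10 without Ctrl replicate 1.

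**Figure D4:**
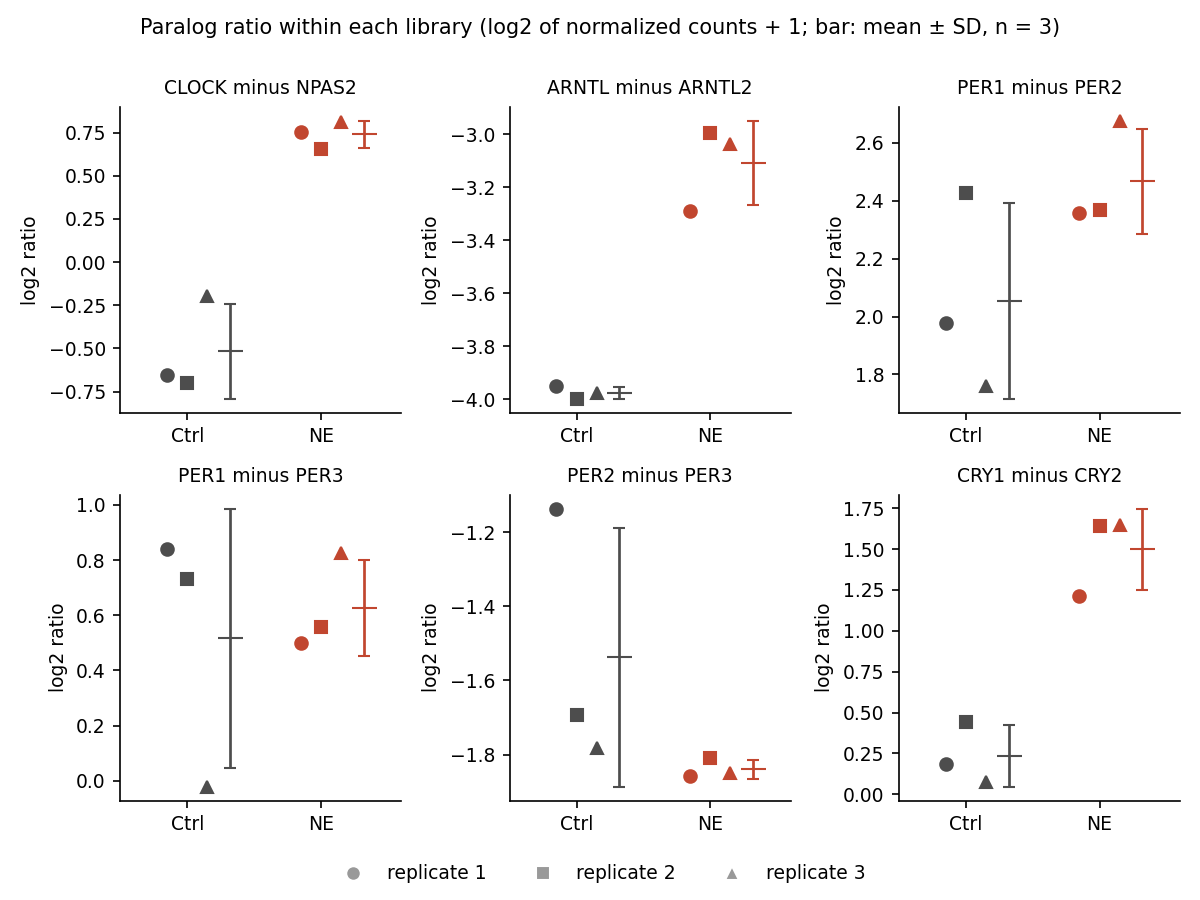
Log2 ratio of paralogs within each library (vertical axes, log2 of normalized counts + 1, not starting at 0) for 6 pairs in Ctrl and NE libraries, with a bar for the mean ± SD. The NE libraries lie above the Ctrl libraries for CLOCK minus NPAS2 (0.66 to 0.81 against -0.70 to -0.20), ARNTL minus ARNTL2 and CRY1 minus CRY2, and below them for PER2 minus PER3.

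The pairs differ in GC content, and the ratios moved with it. CLOCK is poorer in GC than NPAS2, and its difference was 0.55 (standard error 0.0664) after the GC correction, with the NE libraries still above. CRY1 is poorer in GC than CRY2, and its difference was 0.37 (standard error 0.313) after the correction, with overlapping groups. ARNTL is richer in GC than ARNTL2, and that difference was 1.15 (standard error 0.0974). Among the PER genes the correction gave 0.68 for PER1 minus PER2, 1.04 for PER1 minus PER3 and 0.36 for PER2 minus PER3, the last with its sign reversed. The NE and Ctrl libraries were apart for 4 of the 6 pairs without the correction and for 5 of 6 with it. The PER pairs share genes, so the pairs are not independent of each other. Among single tested genes without the correction, every NE library lay above every Ctrl library for 29.7% and below for 28.9%. No such share was taken over other gene pairs, and the part of GC content was not tested.

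Levels of different genes were compared per exon length, as FPKM recomputed from the reads. ARNTL2 stood far above the rest, at 26.2 ± 3.79 FPKM in Ctrl and 31.6 ± 1.99 in NE-treated cells (SD, n = 3 each). CRY1 followed, at 3.93 ± 0.301 and 7.56 ± 1.17 FPKM, and PER2 was the lowest, at 0.643 ± 0.119 and 0.637 ± 0.0493 FPKM. In Ctrl cells PER1, NPAS2, CRY2, CLOCK, ARNTL and PER3, in that order from 2.73 to 1.63 FPKM, each overlapped with the next. In NE-treated cells CLOCK, at 4.71 ± 0.622 FPKM, came after ARNTL2 and CRY1 and was apart from ARNTL at 3.69 ± 0.203 FPKM. ARNTL overlapped with PER1 at 3.61 ± 0.323 FPKM, and CRY2 overlapped with PER3, while PER1 was apart from NPAS2 and NPAS2 from CRY2.

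As a share of each family's summed FPKM, CLOCK made up 40.8, 40.0 and 48.6% of CLOCK plus NPAS2 in the Ctrl libraries and 64.7, 63.1 and 65.6% in the NE libraries. ARNTL made up 6.10, 5.91 and 6.0% of the BMAL pair in Ctrl and 9.35, 11.2 and 10.9% in NE libraries. BMAL transcripts were thus mostly ARNTL2 in all 6 libraries. CRY1 made up 59.6, 63.8 and 57.7% of the CRY pair in Ctrl and 75.04, 80.2 and 80.3% in NE libraries. For these 3 pairs the shares did not overlap between groups. Separation was common among single genes, with NE libraries above Ctrl for 29.7% of tested genes and below for 28.9%. No such share was taken over other pairs. After the GC correction the log2 ratio of CRY1 to CRY2 overlapped between groups. Within the PER family the share of PER1 was 54.3 ± 7.01% in Ctrl and 57.7 ± 2.96% in NE-treated cells, and that of PER3 was 32.9 ± 6.66% and 32.1 ± 2.22% (SD, n = 3 each), both overlapping. PER2 gave 12.8 ± 1.91% in Ctrl and 10.2 ± 0.759% in NE-treated cells, with the NE libraries below. That separation was narrow, with 10.7% in both Ctrl replicate 2 and NE replicate 2, and the log2 ratio of PER2 to PER3 changed sign with the GC correction.

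**Figure D5:**
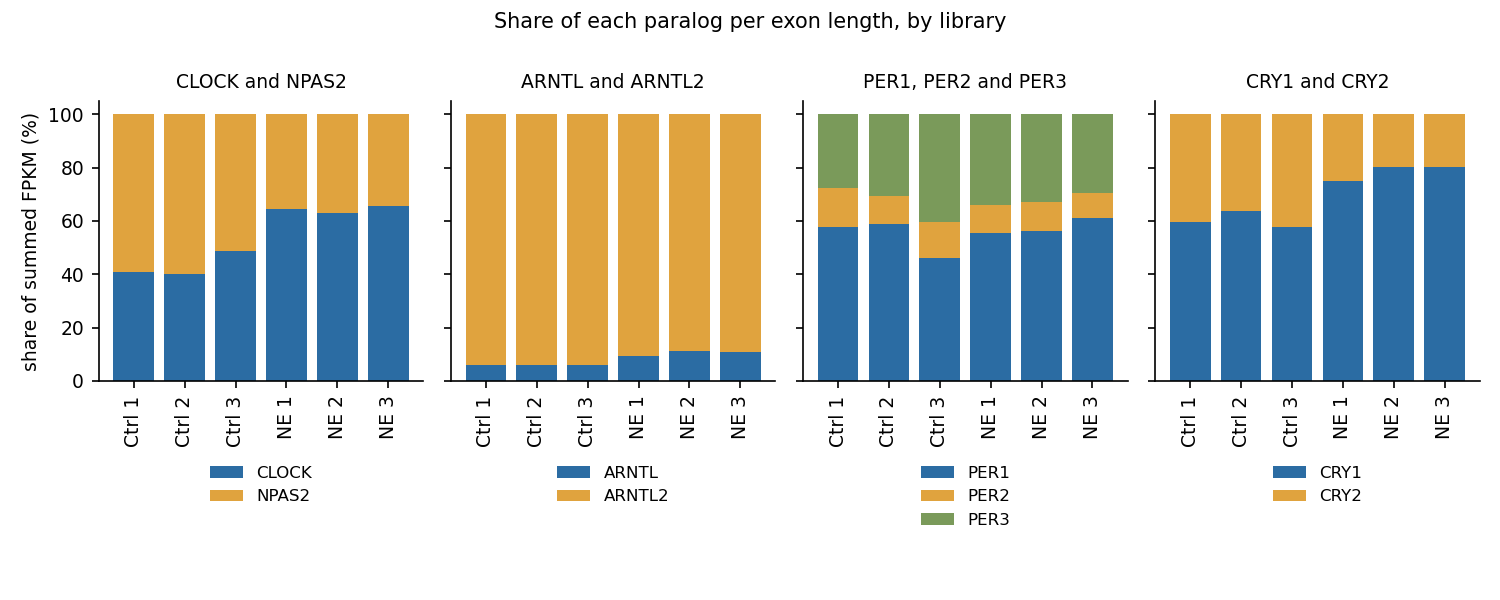
Share of each paralog in the summed FPKM of its family (stacked bars from 0 to 100%) in each Ctrl and NE library. CLOCK goes from 40.0 to 48.6% in Ctrl to 63.1 to 65.6% in NE libraries and CRY1 from 57.7 to 63.8% to 75.04 to 80.3%, ARNTL stays a small part of its pair, and the PER shares change little between groups.

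The summed levels of both arms of the loop per length were higher with NE. The summed FPKM of the 4 activators was 32.7 ± 4.54 in Ctrl and 42.6 ± 2.76 in NE-treated cells, and that of the 5 repressors was 11.5 ± 0.431 and 15.9 ± 1.18 (SD, n = 3 each), with NE libraries above Ctrl libraries in both. ARNTL2 alone gave 26.2 of the 32.7 FPKM of activators in Ctrl, and it did not pass the test on normalized counts and was lower after the GC correction. The FPKM scale itself moved the median log2 fold change of all tested genes to 0.13. The CRY pair went from 6.49 to 9.61 FPKM in this sum and the PER genes from 5.01 to 6.25 FPKM. On the log2 scale of normalized counts, the mean of the activators minus that of the repressors was 1.37, 1.38 and 1.74 in Ctrl and 1.96, 1.90 and 1.74 in NE libraries. The NE libraries lay above the Ctrl libraries, but only just in the case of NE replicate 3 and Ctrl replicate 3. The difference of the group means was 0.37 without and -0.08 with the GC correction, after which the groups overlapped.

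Libraries of a group did not vary alike for all members. In Ctrl, replicate 3 was the highest library for CLOCK, ARNTL, ARNTL2, PER3 and CRY2 and the lowest for PER1 and CRY1. In NE, replicate 1 was the highest for 7 genes, and replicate 3 was the lowest for CLOCK, NPAS2, ARNTL, ARNTL2, PER2 and PER3. The SD between libraries was 7.06 times the counting SD for ARNTL2 in Ctrl and 5.27 times for CLOCK in NE libraries, and 0.378 times for NPAS2 in Ctrl. These ratios cover counting error only, since the reads carry no molecular identifiers.

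Genes with the most similar profile were sought among 10199 protein-coding genes that averaged 100 normalized counts or more, by the root mean square difference of the log2 profiles over the 6 libraries. For CLOCK these were ZFHX4, PPP4R3B and MED13, at 0.0299, 0.0379 and 0.0398, with log2 fold changes of 1.01, 1.03 and 1.04. For ARNTL they were RWDD2A, RUFY2 and RAB8B, at 0.0518, 0.0545 and 0.055. For CRY1 they were ALG13, NEK2 and TCEAL9, at 0.0733, 0.0792 and 0.0824, and for NPAS2 MT-ND3, SH2B2 and SCD, at 0.0436, 0.0451 and 0.0496. None of these 12 genes is a member or a listed clock gene.

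Other genes of the clock were counted from lists of regulators and of E-box outputs. The lists share DBP, TEF, HLF, NR1D1, NR1D2, CIART, BHLHE40 and BHLHE41, so their counts are not separate. Of 22 tested regulators among 24 listed, 13 were higher and 4 lower with NE (limma, adjusted p from 0.0002 to 0.0483), where 24.6% of all tested genes were higher and 25.5% lower. Their median log2 fold change was 0.59 beside 0.01 over all tested genes. After the GC correction 6 were higher, NR1D2, RORB, NFIL3, BTRC, CIPC and SIRT1, and 0 lower, against 14.5% and 17.7% of tested genes, with a median of 0.23. The regulators of ARNTL transcription through the RORE were split. The activators RORA and RORB had log2 fold changes of 1.34 and 1.45, the repressor NR1D2 was at 1.19 and its paralog NR1D1 at -0.56. NFIL3, which represses through the D-box, was at 1.21, and TEF, which activates through it, was at -0.93. With the GC correction RORA was at 0.73, RORB at 0.90, NR1D2 at 0.60, NR1D1 at 0.0058, NFIL3 at 1.09 and TEF at -0.42, of which RORA, NR1D1 and TEF did not pass.

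FBXL21P, a pseudogene of the F-box family in humans, was at 1.08. The ubiquitin ligase subunits BTRC and FBXW11, which act on PER, were at 0.71 and 0.43. CIPC, an inhibitor of the CLOCK and BMAL1 dimer, was at 0.85, and CIART, another repressor of it, at -0.75. The kinases GSK3B, PRKAA1 and PRKAA2 were at 0.56, 0.78 and 1.03, the deacetylase SIRT1 at 0.83 and TIMELESS at -0.49. After the GC correction BTRC, CIPC and SIRT1 passed at 0.55, 0.80 and 0.40, whereas FBXL21P at 0.53, FBXW11 at 0.15, CIART at -0.54, GSK3B at 0.012, PRKAA1 at 0.098, PRKAA2 at 0.32 and TIMELESS at -0.24 did not. Of 11 tested E-box outputs among 12 listed, 3 were higher (NR1D2, NAMPT and PPARA) and 4 lower (TEF, CIART, ALAS1 and NR1D1), where 24.6% and 25.5% of all tested genes were, with a median of -0.25. NAMPT, an enzyme of NAD synthesis, was at 1.3, the lipid receptor PPARA at 0.91, and ALAS1, which starts heme synthesis, at -0.66. After the GC correction the same 3 outputs were higher and 2 were lower, WEE1 at -0.67 and ALAS1 at -0.38, where 14.5% and 17.7% of tested genes were, with NAMPT at 0.63 and PPARA at 0.92.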

How the data were processed

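Total RNA of 3 Ctrl and 3 NE samples was sequenced after NEBNext Ultra library preparation. Per the labels and the methods, the authors aligned reads to hg38 with HISAT2 2.0.5, counted them with featureCounts 1.5.0-p3 and used DESeq2. The annotation is not given in the sources used here. The methods name FPKM, but the signal that was deposited consists of gene counts scaled by a size factor (0.955 to 1.09 by library), since 100% of values were whole reads within 0.1 read. Columns were matched to samples by group letter and replicate number, and 0 columns belonged to other samples.

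The members and the gene lists were chosen with earlier results of these data known. In R 4.3.3, limma 3.58.1 (lmFit, eBayes with trend) was run on log2(value + 1) over genes averaging 10 or more normalized counts, with calls at an adjusted p under 0.05 (Benjamini-Hochberg). A fold on this scale understates the change of low genes. All members, list genes past the threshold and the 3 genes nearest in profile to CLOCK, NPAS2, ARNTL and CRY1 were named. Some genes that meet this rule are counted but are not reported here by name. Exon length and GC content came from GENCODE v44 for 25813 of 26025 genes. For the GC correction, the fit of a natural spline (5 degrees of freedom) was subtracted in each library. Paralog ratios were compared with exact permutation tests (scipy 1.17.1).

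Alternatives were other pseudocounts, filters, quantile normalization, recomputed FPKM, GC with or without length, a fold criterion, a replicate block, each library left out, and, on recovered reads, DESeq2 1.42.0 and edgeR 4.0.16. On simulated data with 200 of 15005 genes changed by 1.5 on the log2 scale, limma recovered 98% and called 10 unchanged genes, edgeR 99% and 8, and DESeq2 96.5% and 12. The simulation had far fewer changed genes than were called here, a larger change than any member showed, and no GC trend. Its recovery therefore does not measure how well changes of the members were detected.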

Additional observations from a re-analysis of the deposited data

How the results depend on the processing

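CLOCK and ARNTL stayed higher with NE and past the threshold in each of 16 alternatives, CLOCK from 0.34 to 1.20 (limma, edgeR or DESeq2, adjusted p from 6.27e-07 to 0.0474) and ARNTL from 0.74 to 1.10 (adjusted p from 4.74e-08 to 0.00592 by the same tools). CRY1 passed in 14 of 16, from 0.35 to 0.92 (adjusted p from 4.2e-06 to 0.121), and CRY2 in 10 of 16, from -0.52 to -0.02 (adjusted p from 0.012 to 0.926). For the changes listed next the cause was not tested, except that a stricter rule leaves fewer genes and leaving out a library leaves fewer samples.

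The GC correction gave 2174 higher genes, and with length as well 1887 higher and 2521 lower genes. Those corrections gave ARNTL2 -0.35 and -0.39, PER2 0.23 and 0.15, and PER3 -0.13 and -0.20. The paralog differences became 0.55 and 0.60 for CLOCK minus NPAS2, 1.15 and 1.13 for ARNTL minus ARNTL2 (0.65 with quantile normalization), 1.04 and 1.01 for PER1 minus PER3, 0.36 and 0.35 for PER2 minus PER3, and 0.37 and 0.48 for CRY1 minus CRY2. The fold criterion left 1121 higher and 983 lower genes, 2 higher and 0 lower members, and recomputed FPKM gave 4457 higher and 2942 lower genes and 0 lower members.

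With each library left out in turn, 2715 to 4802 genes were higher and 2961 to 4890 lower, the most without Ctrl replicate 3, and 3 to 4 members were higher and 0 to 1 lower. PER2 ran from -0.25 to 0.0085, above 0 without Ctrl replicate 1, NPAS2 from -0.34 to -0.10, ARNTL2 from 0.06 to 0.24, PER1 from 0.09 to 0.38 and PER3 from 0.06 to 0.25. The differences ran from 1.17 to 1.42 for CLOCK minus NPAS2, 0.81 to 0.96 for ARNTL minus ARNTL2, 0.27 to 0.60 for PER1 minus PER2, -0.16 (without Ctrl replicate 3) to 0.27 for PER1 minus PER3, -0.42 to -0.10 for PER2 minus PER3 and 1.18 to 1.41 for CRY1 minus CRY2.

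With the replicate block 3150 genes were higher and 3358 lower, 3 members were higher and 1 lower, and no member's call changed, CRY2 being nearest the threshold (limma, adjusted p = 0.045). Across genes, deviations from the group mean had correlations of -0.163, 0.0799 and -0.151 between Ctrl and NE replicates of number 1, 2 and 3. Between different numbers they ran from -0.169 to 0.216. Deviations within a group of 3 are tied to each other, so these values cannot decide whether samples of a number were paired. Depth limits PER2 most, with 67 to 95 reads per library.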

Other observations

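CLOCK, NPAS2, ARNTL and ARNTL2 belong to the bHLH-PAS family, whose other members sense oxygen, foreign chemicals or neural signals. Of 12 such factors listed, 9 were in the table and 8 were tested, and 3 were higher and 0 lower with NE, where 24.6% and 25.5% of all tested genes were, with a median log2 fold change of 0.58 beside 0.01 over all tested genes. EPAS1, which encodes the hypoxia factor HIF-2 alpha, had 46.1, 48.7 and 49.0 normalized counts in Ctrl and 340.9, 302.2 and 261.3 in NE libraries, a log2 fold change of 2.62 (standard error 0.173, limma, adjusted p = 2.33e-05). It was 2.97 after the GC correction. AHR, the receptor of dioxin-like chemicals, was at 1.08 (limma, adjusted p = 0.00398) and HIF1A, the other hypoxia factor, at 0.60 (limma, adjusted p = 0.0184). After the GC correction EPAS1, AHR and AHRR were higher and 0 lower, where 14.5% and 17.7% of tested genes were, with HIF1A at -0.0041 and a median of 0.74. ARNT, the partner that these factors share and a relative of ARNTL, had a log2 fold change of 0.20 (limma, adjusted p = 0.142).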
